A study of Camellia sinensis with 9 samples.

Results

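The miR535 family of the tea plant, Camellia sinensis, was followed across root, flower and leaf. Its members were the rows of the deposited miRNA table that carry a miR535 name: csn-miR535a_5p, csn-miR535a_3p, csn-miR535b_5p, csn-miR535b_3p, csn-miR535c1_5p, csn-miR535c1_3p, csn-miR535c2_5p, csn-miR535c2_3p and csn-miR535d_5p. These 9 of 371 named rows held 7 of 341 distinct sequences, because the 5p rows of miR535a and miR535c2 list the same letters, and so do their 3p rows. Such rows also listed the same counts and were joined, so that each sequence was counted once. A further row, csn-miR535d_3p, was not on the list of members and is used only as the partner of miR535d_5p. The species prefix csn- is left out below.

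The data are small RNA sequencing of total RNA from untreated plants, with 3 libraries per organ: root13, root23 and root33, flower1, flower2 and flower45, and leaf1, leaf23 and leaf41. The labels give the organ as the single difference between groups and name no cultivar, plant age, developmental stage or plant of origin. The p-values therefore measure the spread between these libraries, which may be technical. In whole organs, fewer cells of a type and less RNA per cell cannot be told apart.

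A plant miRNA is cut as a duplex from a hairpin precursor, and in most families the strand that ends up in an Argonaute protein comes mainly from 1 arm, here named 5p or 3p for the side of the hairpin. The miR535 family occurs across land plants and is related in sequence to miR156. The miR156 family acts on SPL genes, transcription factors that promote the change from the juvenile to the adult phase and flowering, and SPL genes have also been described as targets of miR535 in rice. In the same age pathway, miR172 acts on AP2-like factors. Targets in tea were not analysed here.

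The 5p sequences are shown because the members with different organ profiles differ within them, and they are given 5′ to 3′ with bases 2 to 8, the seed, in capitals.
miR535a_5p and miR535c2_5p: uGACAACGagagagagcacgc
miR535c1_5p: gACAACGAgagagagcacgc
miR535b_5p: uGACGACGagagagagcacgc
miR535d_5p: uGACGAUGagagagagcacgc

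Counting from 1 at the 5′ end of miR535a_5p, miR535b_5p differed from it by A5G alone, and miR535d_5p by A5G and C7U. Both positions lie in the seed, so these 3 sequences, each 21 bases long and starting with U, have 3 different seeds. All bases after the seed are the same in these 3. The sequence of miR535c1_5p is that of miR535a_5p without its first U, 20 bases in all, which moves its seed by 1 base and makes G its first base. In Arabidopsis, the first base is known to influence which Argonaute protein takes up a small RNA, with U favoured by AGO1. No other sequence of the table had the seed of any of the 4.

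The 3p sequences are shown as the opposite strands of the same duplexes.
miR535a_3p and miR535c2_3p: gUGCUCUCucucguugucaua
miR535c1_3p: gUGCUCUCucucguugucag
miR535b_3p: gUGCUGUCuaucgucgucaug
miR535d_3p: gUGCUCUCuaucgucgucaug

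The seed is shared by miR535a_3p, miR535c1_3p and miR535d_3p, and that of miR535b_3p differs from it. Against miR535a_3p, the 3p sequence of miR535b differed by C6G, C10A, U15C and A21G, counted from the 5′ end of miR535a_3p, that of miR535d by C10A, U15C and A21G, and that of miR535c1, 20 bases long, by U20G. Folded on each other with RNAduplex, the 5p and 3p arms of miR535a and miR535c2 formed 19 base pairs with a predicted energy of -37.7 kcal/mol. Those of miR535c1 formed 18 (-37.2 kcal/mol), those of miR535d 18 (-31.3 kcal/mol) and those of miR535b 17 (-29.3 kcal/mol). These are predictions for the listed strands alone, without the precursor.

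The relation to miR156 was read from the 5 distinct miR156 5p sequences of the table. The closest by ungapped alignment to each miR535 5p sequence was miR156h_5p, shown because it shares a long run of letters with the family, here in capitals.
miR535a_5p and miR535c2_5p: ugacaacGAGAGAGAGCACgc
miR156h_5p: uugacagaaGAGAGAGAGCAC
The shared run of 12 bases starts at position 8 of miR535a_5p and at position 10 of miR156h_5p, and it is also present in miR535b_5p, miR535d_5p and, from position 7, miR535c1_5p. The first 5 bases of miR535a_5p (UGACA) stand in all 5 miR156 sequences, at position 1 or 2. In miR535b_5p and miR535d_5p, A5G breaks this second match.

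Counted once per distinct sequence, a library held between 369605 (root13) and 1073284 (flower2) reads. The leaf41 library stood apart from the other leaf libraries. Across the 129 tested sequences, log2 CPM (read counts scaled to a common library size) of leaf41 correlated with leaf1 and leaf23 at r = 0.773 and 0.810, while leaf1 and leaf23 correlated at 0.948, root libraries at 0.928 to 0.955 and flower libraries at 0.939 to 0.962. These correlations describe sequences within libraries, which are not independent replicates. With root13, root23 and root33 leaf41 correlated at 0.732, 0.777 and 0.791. The values for root23 and root33 lay slightly above that for leaf1, and all 3 lay below that for leaf23. With flower libraries it correlated at 0.699 to 0.721. Without leaf41, 52 sequences were called higher in root than in leaf and 28 lower. For 41 and 22 of these, leaf41 lay beyond both other leaf libraries towards root, and for 13 and 8 leaf41 reached the root range. Leaf means and SDs over 3 libraries include it, and the values without it are given mainly where they change a call, a direction or a size. Whether leaf41 is a mixed or mislabelled library was not tested.

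The family as a whole was most abundant in leaf, lower in root and lowest in flower. It took 6.76%, 8.09% and 10.6% of the counts in leaf1, leaf23 and leaf41, 2.69%, 1.83% and 2.21% in root13, root23 and root33, and 0.454%, 0.394% and 0.431% in flower1, flower2 and flower45. The organ means were 8.49% ± 1.96 in leaf, 2.24% ± 0.43 in root and 0.426% ± 0.030 in flower (SD, n = 3 each). The leaf mean was 7.43% without leaf41, and no library of an organ overlapped with those of another. The 95% Wilson intervals were narrow beside these differences (6.69% to 6.83% in leaf1, the lowest leaf library, and 2.64% to 2.74% in root13, the highest root library), but they cover counting error only. Divided by the authors' scaling constants, the family total ran from 15180 to 25166 in leaf, 4536 to 5363 in root and 1790 to 1978 in flower, the same order. Among 63 families by number in the name, miR535 was ranked 5, 4 and 3 by abundance in leaf1, leaf23 and leaf41, 8 in all 3 root libraries, and 13 or 14 in flower libraries.

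The make-up of the family differed between organs more than this total shows. In leaf1 and leaf23 the sequence of miR535a_5p and miR535c2_5p made up 86.4% and 90.0% of the family counts, and miR535b_5p and miR535d_5p together stayed below the 3p arm of miR535a. In root, miR535a_5p held 58.9% ± 2.2, miR535b_5p 29.98% ± 1.86 and miR535d_5p 6.14% ± 1.16 (SD, n = 3). In flower, miR535a_5p held 70.9% ± 4.7, its 3p arm 17.4% ± 3.9 and miR535b_5p 11.0% ± 4.2, while miR535d_5p took at most 0.118% in a library. In leaf41, miR535b_5p reached 7.76% and miR535d_5p 2.38%, against 0.974% and 1.06%, and 0.0061% and 0.0052%, in leaf1 and leaf23.

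**Figure D1:**
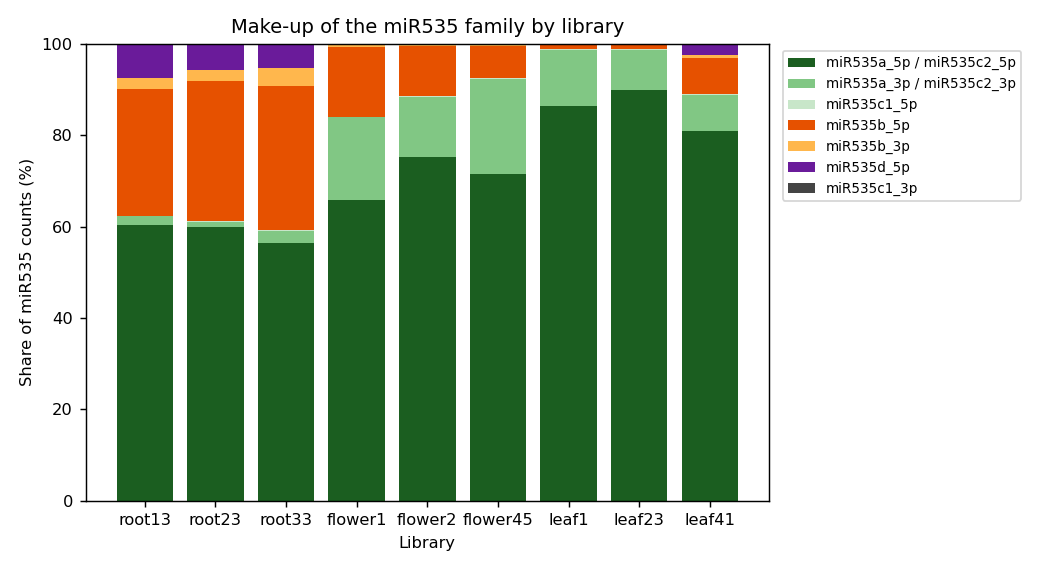
Share of the miR535 counts (vertical axis, %) taken by each distinct sequence in each of the 9 libraries, as stacked bars. The orange and purple parts, miR535b and miR535d, are widest in the 3 root libraries, and in leaf they are visible mainly in leaf41, where miR535d_5p holds 2.38%.

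The dominant member, miR535a_5p with miR535c2_5p, was the sequence with the clearest order of organs: leaf above root above flower. It had 28552, 34709 and 45619 counts in leaf1, leaf23 and leaf41, 6012, 7230 and 6337 in root13, root23 and root33, and 2747, 3179 and 2704 in flower1, flower2 and flower45. After scaling by TMM (trimmed mean of M values) this was 65620 ± 8273 CPM in leaf, 12050 ± 1506 in root and 3597 ± 241.1 in flower (SD, n = 3 each). All leaf libraries lay above all root libraries, and all root libraries above all flower libraries. Among the distinct sequences of a library its rank was 4 or 5 in leaf, 10 to 12 in root and 24 to 26 in flower.

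By edgeR's quasi-likelihood test with Benjamini-Hochberg adjustment over all 129 tested sequences, miR535a_5p was 5.45-fold lower in root than in leaf (log2 -2.45 ± 0.27 SE, adjusted p = 0.000577). It was 18.2-fold lower in flower than in leaf (log2 -4.19 ± 0.30, adjusted p = 1.37e-05) and 3.35-fold lower in flower than in root (log2 -1.74 ± 0.27, adjusted p = 0.000923). Without leaf41 the values were log2 -2.43 (adjusted p = 0.00132), -4.03 (adjusted p = 0.000141) and -1.59 (adjusted p = 0.00331).

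**Figure D2:**
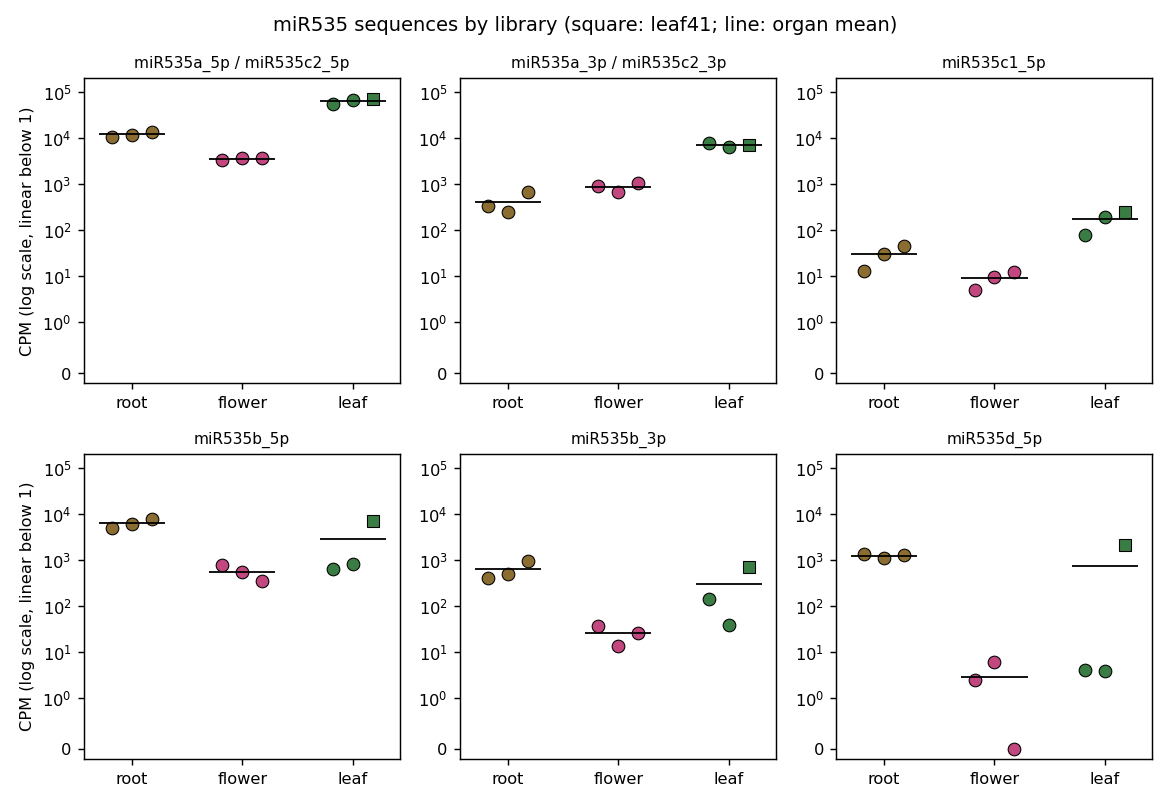
CPM after TMM scaling (vertical axis, log scale, linear below 1) of the 6 tested miR535 sequences in each library, by organ. Points are libraries, the square is leaf41 and the line is the organ mean of 3 libraries; in the top row leaf41 lies with the other leaf libraries, and in the bottom row (miR535b_5p, miR535b_3p, miR535d_5p) it lies near the root libraries.

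The shortened form miR535c1_5p was rare and followed miR535a_5p. It had 40, 97 and 154 counts in leaf1, leaf23 and leaf41, 7, 19 and 21 in root13, root23 and root33, and 4, 8 and 9 in flower1, flower2 and flower45. After scaling, leaf libraries again lay above root libraries, and the lowest root library, root13 (12.56 CPM), lay just above the highest flower library, flower45 (12.27 CPM). The raw counts of root and flower overlapped. It was lower in root than in leaf (log2 -2.53 ± 0.76, adjusted p = 0.0304) and in flower than in leaf (log2 -4.24 ± 0.82, adjusted p = 0.00424), also without leaf41 (adjusted p = 0.0316 and 0.00665). The first of these calls was lost without root13, root23 or leaf23 in turn (adjusted p = 0.0919, 0.116 and 0.0706). It was also lost with a fold of at least 2 (adjusted p = 0.0741). The difference between flower and root did not pass (log2 -1.71 ± 0.76, adjusted p = 0.0991), but it did with library totals (log2 -1.99, adjusted p = 0.0481).

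Set against miR535a_5p in the same library, miR535c1_5p ranged from 0.140% to 0.338% across leaf libraries, from 0.116% to 0.331% across root libraries and from 0.146% to 0.333% across flower libraries. These ranges overlapped for each pair of organs, and the log2 ratio differed by -0.08 between root and leaf (two-sided exact permutation test, p = 0.8), by 0.06 between flower and leaf (exact p = 0.9) and by 0.14 between flower and root (exact p = 0.7). Without leaf41 the first turned to 0.17 and the second was 0.32. The opposite arm, miR535c1_3p, had 5 reads in leaf1, 1 in leaf23 and 0 in each of the other 7 libraries. A count of 0 allows up to 3 counts, or 0.00028% to 0.000812% of the reads of those libraries. It was removed by the low-count filter and is the only member that was not tested.

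The arms of miR535b had their highest organ means in root. Its 5p arm had 2775, 3695 and 3537 counts in root13, root23 and root33, 634, 463 and 259 in flower1, flower2 and flower45, and 322, 410 and 4372 in leaf1, leaf23 and leaf41. In CPM these were 6195 ± 1355 in root and 557.0 ± 207.1 in flower (SD, n = 3 each), while leaf1 and leaf23 stood at 638.7 and 795.0 and leaf41 at 6988. The flower libraries lay below all root libraries, leaf1 and leaf23 lay near the flower libraries, and leaf41 lay within the range of root.

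Between flower and root, miR535b_5p was 11.1-fold lower in flower (log2 -3.47 ± 0.94, adjusted p = 0.015), a call that was lost without root33 or without flower2 (adjusted p = 0.0509 and 0.0679). Between root and leaf it was not called with all 9 libraries (log2 1.14 ± 0.87, adjusted p = 0.298). Without leaf41 it was called 8.23-fold higher in root (log2 3.04 ± 0.61, adjusted p = 0.00391). Flower and leaf were not called with leaf41 (log2 -2.33 ± 0.90, adjusted p = 0.0699) or without it (log2 -0.27 ± 0.54, adjusted p = 0.726). With leaf41, other scalings called it lower in flower (adjusted p = 0.0388 with the size factors of DESeq2 and 0.0415 with library totals), and the authors' constants did not (log2 -1.86, adjusted p = 0.146). It was also called in the fits without a low-count filter (0.00798), on unjoined rows (0.0114), on the 6 libraries compared (0.0475) and without leaf1 (0.0309).

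The 3p arm, miR535b_3p, showed the same split of the leaf libraries at a lower level. It had 229, 304 and 444 counts in root13, root23 and root33, 30, 11 and 19 in flower1, flower2 and flower45, and 70, 20 and 444 in leaf1, leaf23 and leaf41. It was 24.5-fold lower in flower than in root (log2 -4.62 ± 1.15, adjusted p = 0.00993; 0.0607 without flower2). The difference between root and leaf was log2 1.07 ± 0.99 with all libraries (adjusted p = 0.377) and 2.80 ± 0.90 without leaf41 (adjusted p = 0.0274). Flower was called lower than leaf with leaf41 (log2 -3.55 ± 1.09, adjusted p = 0.0306) and not without it (log2 -1.67 ± 0.81, adjusted p = 0.133), nor without root23, flower1 or flower2 (adjusted p = 0.0565, 0.0776 and 0.122).

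The reads of miR535d_5p were almost all in root and in leaf41, and it was near 0 in flower and in both leaf1 and leaf23. It had 743, 685 and 595 counts in root13, root23 and root33, 2, 5 and 0 in flower1, flower2 and flower45, and 2, 2 and 1340 in leaf1, leaf23 and leaf41. In CPM, root stood at 1241 ± 122.2 (SD, n = 3) and leaf41 at 2142, above all root libraries. Its flower libraries and both other leaf libraries stood at 0 to 5.947 CPM.

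Between flower and root, miR535d_5p differed by log2 -8.68 ± 2.52 (adjusted p = 0.021), which rests on 2, 5 and 0 reads in flower and was lost without flower1 or flower2 (adjusted p = 0.0715 and 0.0651). Between root and leaf the log2 difference was 0.79 ± 1.78 with all libraries (adjusted p = 0.699) and 8.19 ± 1.23 without leaf41 (adjusted p = 0.00132), the latter against 2 reads in each of leaf1 and leaf23. The call between flower and leaf (log2 -7.88 ± 2.45, adjusted p = 0.0307) was not made without leaf41 (log2 -0.36, adjusted p = 0.821), nor without flower1, flower2 or flower45 (adjusted p = 0.103, 0.083 and 0.0604). The libraries of flower and leaf overlapped in either case. The row of its opposite arm, miR535d_3p, summed to 14 reads over the 9 libraries, of which 7 were in leaf41, 3 in root23 and 2 in root33.

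**Figure D3:**
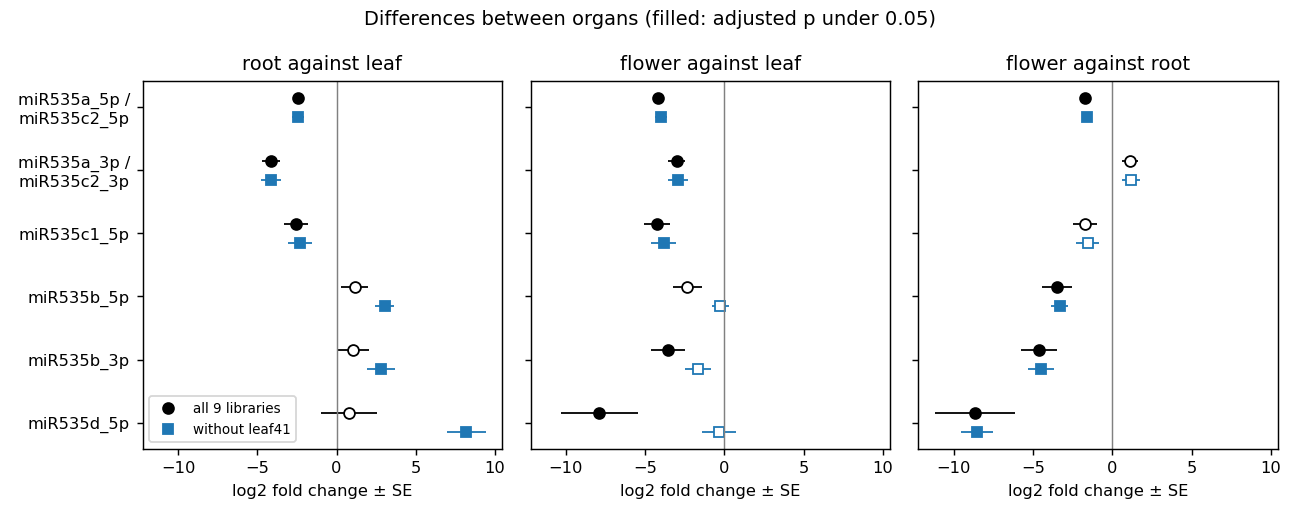
log2 fold change (horizontal axis) with its standard error for the 6 tested miR535 sequences in the 3 comparisons of organs, with all 9 libraries (circles) and without leaf41 (squares). Filled symbols have an adjusted p under 0.05; for miR535d_5p the root and leaf difference is 0.79 with leaf41 and 8.19 without it, while the 3 upper sequences hardly move.

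Counted over the family, 3 of the 6 tested sequences were called lower in root than in leaf and none higher. Over all 129 tested sequences, 13.2% were called lower and 21.7% higher in root. The 3 were miR535a_5p, miR535a_3p and miR535c1_5p. Without leaf41 the same 3 were lower and the other 3, miR535b_5p, miR535b_3p and miR535d_5p, were higher in root, where 19.9% of 141 tested sequences were lower and 36.9% higher. All 6 tested members were thus called, lower in root for miR535a_5p, its 3p arm and miR535c1_5p, and higher in root for both arms of miR535b and for miR535d_5p.

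Between flower and leaf, 5 of 6 were lower in flower and none higher, against 19.4% lower and 17.1% higher over all tested sequences. Without leaf41 this was 3 of 6, namely miR535a_5p, miR535a_3p and miR535c1_5p, against 18.4% lower and 24.8% higher. It was also 3 without flower1 or without flower2, where the calls over all sequences fell from 47 to 33 and 31. Between flower and root, 4 of 6 were lower in flower and none higher, against 24.0% lower and 18.6% higher over all. Without flower2 it was 1, miR535a_5p, and the calls over all sequences fell from 55 to 38. The median log2 difference of the 6 was -0.83 between root and leaf, -3.87 between flower and leaf and -2.61 between flower and root, beside 0.56, -0.12 and -0.04 over all tested sequences. Without leaf41 the first turned to 0.26 and the second was -2.30, beside 0.81 and 0.35. The comparisons share libraries, so they are not independent of each other. Nor are the members separate units. Both arms of miR535a and both arms of miR535b are among them, and miR535c1_5p is miR535a_5p without its first base.

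Comparing members within a library needs no scaling between libraries. The count of miR535b_5p was 46.2%, 51.1% and 55.8% of that of miR535a_5p in root13, root23 and root33, 23.1%, 14.6% and 9.58% in flower1, flower2 and flower45, and 1.13%, 1.18% and 9.58% in leaf1, leaf23 and leaf41. Every root library lay above every flower and leaf library. The ratio of leaf41 was level with that of flower45, the lowest flower library: flower and leaf touched, and lay apart only after 0.5 was added to each count. The log2 ratio was 4.44 higher in root than in leaf, 1.78 higher in root than in flower and 2.66 higher in flower than in leaf (two-sided exact permutation test, p = 0.1 for each). Without leaf41 the gaps to leaf were 5.46 for root and 3.68 for flower. With 3 libraries against 3, 0.1 is the smallest p that this test can give, and over the 15 ratio comparisons made it adjusts to 0.167.

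For miR535d_5p the ratio to miR535a_5p was 12.4%, 9.47% and 9.39% in root13, root23 and root33, 0.0728%, 0.157% and 0% in flower1, flower2 and flower45, and 0.0070%, 0.0058% and 2.94% in leaf1, leaf23 and leaf41. Root again lay above every other library (exact p = 0.1 against flower and against leaf, adjusted 0.167), and flower and leaf overlapped (exact p = 1). Without leaf41 the log2 ratio was 10.34 higher in root than in leaf, against means of -3.28 in root and -10.78 in leaf with it, and leaf then rests on 2 reads in each library. Sequences that differ by 1 or 2 seed bases from miR535a_5p thus took a larger share next to it in root than in any flower or leaf library.

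The opposite arm of the main duplex, miR535a_3p with miR535c2_3p, had its highest organ mean in leaf, as the 5p arm did, but its lowest in root. It had 4058, 3328 and 4387 counts in leaf1, leaf23 and leaf41, 756, 559 and 788 in flower1, flower2 and flower45, and 182, 151 and 309 in root13, root23 and root33. After scaling this was 7171 ± 809.8 CPM in leaf, 884.6 ± 206.4 in flower and 412.8 ± 225.6 in root (SD, n = 3 each). Leaf lay above both other organs, and flower and root overlapped by root33 (668.8 CPM) and flower2 (664.8 CPM).

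It was 17.4-fold lower in root than in leaf (log2 -4.12 ± 0.57, adjusted p = 0.000769) and 8.11-fold lower in flower than in leaf (log2 -3.02 ± 0.54, adjusted p = 0.00322), and both calls were also made without leaf41. The difference between flower and root was log2 1.10 ± 0.51, opposite in sign to that of the 5p arm, and did not pass (adjusted p = 0.108). It passed with the size factors of DESeq2 (log2 1.40, adjusted p = 0.0352), in DESeq2 itself (adjusted p = 0.012), with the authors' constants (log2 1.75, adjusted p = 0.0184) and without root33 (log2 1.84, adjusted p = 0.0314).

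Per 5p read there were accordingly more 3p reads of this duplex in flower than elsewhere. The 3p count was 27.5%, 17.6% and 29.1% of the 5p count in flower1, flower2 and flower45, 14.2%, 9.59% and 9.62% in leaf1, leaf23 and leaf41, and 3.03%, 2.09% and 4.88% in root13, root23 and root33. No library of an organ overlapped with those of another. The mean log2 ratio was 2.94 higher in flower than in root, 1.14 higher in flower than in leaf and 1.80 higher in leaf than in root (two-sided exact permutation test, p = 0.1 for each, the smallest possible, adjusted 0.167).

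For miR535b the 3p count was 8.25%, 8.23% and 12.6% of the 5p count in root13, root23 and root33, 4.73%, 2.38% and 7.34% in flower1, flower2 and flower45, and 21.7%, 4.88% and 10.2% in leaf1, leaf23 and leaf41. Here flower lay below root (log2 difference -1.09, exact p = 0.1, adjusted 0.167), whereas for miR535a flower lay above root, and leaf, where leaf23 rests on 20 reads of the 3p arm, overlapped with both (exact p = 0.8 against root and 0.2 against flower). The arms of miR535a are also listed under miR535c2 with the same letters and counts, so their ratio cannot be assigned to either name alone. Whether reads of either arm of miR535b could come from more than 1 locus was not tested.

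**Figure D4:**
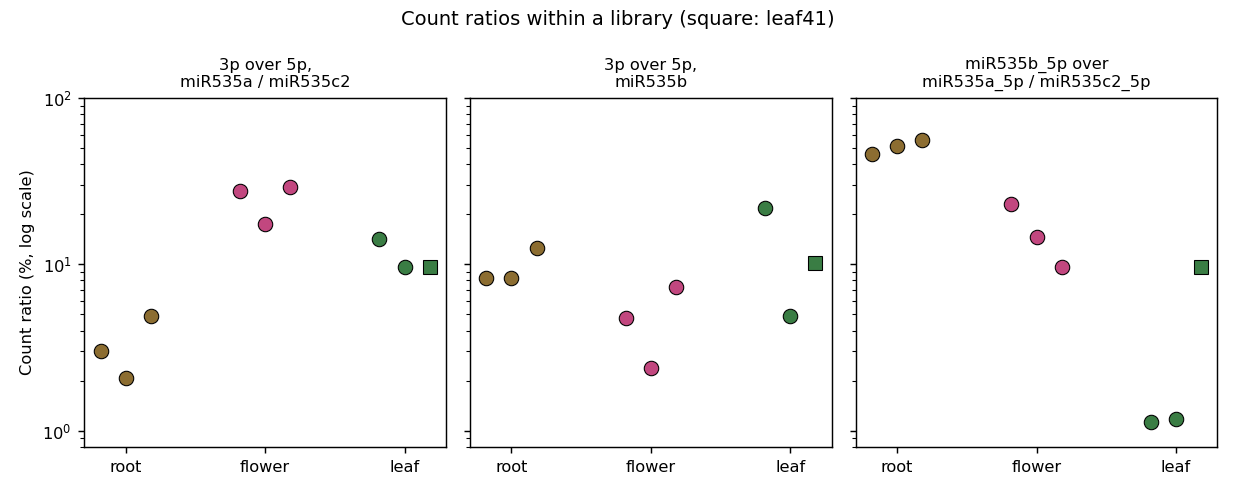
Ratio of 2 read counts within each library (vertical axis, %, log scale), by organ, for the 3p over the 5p arm of miR535a and miR535c2, the 3p over the 5p arm of miR535b, and miR535b_5p over miR535a_5p. Points are libraries and the square is leaf41; the first ratio is highest in flower (17.6% to 29.1%) and the last in root (46.2% to 55.8%).

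The other families of the age pathway in the table were miR156 and miR172, taken with both arms. Of 18 distinct miR156 sequences, 13 were tested: 3 were higher and 1 lower in root than in leaf (median log2 0.92, beside 0.56 over all tested sequences), 1 higher and 7 lower in flower than in leaf (median -3.64, beside -0.12), and 1 higher and 8 lower in flower than in root (median -5.12, beside -0.04). Over all 129 tested sequences, 21.7% were higher and 13.2% lower in root than in leaf. Flower had 17.1% higher and 19.4% lower than leaf, and 18.6% higher and 24.0% lower than root. Without leaf41 the miR156 counts were 6 and 1, 1 and 5, and 1 and 9. The miR156 median was then 1.59 between root and leaf, beside 0.81, and -0.43 between flower and leaf, beside 0.35. Over all 141 sequences tested then, the shares were 36.9% and 19.9%, 24.8% and 18.4%, and 22.7% and 27.7%. Of 15 miR172 sequences 6 were tested, of which 1 was higher and 3 lower in root than in leaf, 3 higher and 3 lower in flower than in leaf, and 3 higher and none lower in flower than in root. The miR172 medians were -1.09, 0.47 and 1.43, beside the same 0.56, -0.12 and -0.04 over all tested sequences. With other scalings the sign of each miR156 and miR172 median was the same. Without leaf41, 7 miR172 sequences were tested. Between root and leaf their median was then -3.10, beside 0.81 over all, with none called higher and 4 lower. Between flower and leaf it was -2.52, beside 0.35, with 3 higher and 4 lower.

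The most abundant miR156 sequences also divided by how leaf41 related to the other leaf libraries. miR156a_5p had 2170, 1426 and 1411 counts in root, 69, 104 and 42 in flower, and 109 in leaf1, where leaf23 was close to it, against 2959 in leaf41, so that leaf41 again lay far above both other leaf libraries. It was lower in flower than in root (log2 -5.12 ± 1.24, adjusted p = 0.00893) and than in leaf (log2 -4.31 ± 1.19, adjusted p = 0.0186; 0.0726 without leaf41, 0.0773 without flower1 and 0.0648 without flower2), and root and leaf differed by log2 0.82 with leaf41 (adjusted p = 0.503) and 3.53 without it (adjusted p = 0.00391). The sequence of miR156b_5p and MIR156j_5p, with 1052, 1056 and 1462 counts in leaf1, leaf23 and leaf41, showed no such gap. It was lower in flower than in leaf (log2 -6.26 ± 0.64, adjusted p = 8.9e-05) and root (log2 -5.66 ± 0.62, adjusted p = 0.000224), with or without leaf41. Root and leaf were not called apart (log2 -0.60 ± 0.51, adjusted p = 0.34), but DESeq2 called root lower (adjusted p = 0.0264), as did the fits on the 6 libraries compared (0.0357) and without flower45 (0.0411).

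miR156g_5p, the most abundant of the family, averaged 11050 ± 1733 CPM over root, 5754 ± 4071 over leaf and 4265 ± 1098 over flower libraries (SD, n = 3 each) and was called in none of the 3 comparisons (adjusted p = 0.173, 0.545 and 0.0678). Without leaf41 it was higher in root than in leaf (log2 1.59, adjusted p = 0.0303) and lower in flower than in root (log2 -1.21, adjusted p = 0.0465). With leaf41, flower was also called lower than root with library totals (adjusted p = 0.0356) and on unjoined rows (0.0434). The fit on the 6 libraries compared, which holds no leaf library, called it too (0.046).

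The leading miR172 sequence was miR172f_3p, which averaged 50.18 ± 18.55 CPM over leaf libraries and 5404 ± 1329 CPM over flower libraries (SD, n = 3 each). In root it had 1 and 4 counts in root13 and root23 and 90 in root33, so that root33 alone set the root level. Root and leaf were not called apart (log2 0.42 ± 1.24, adjusted p = 0.773), but without root33 root was lower (log2 -3.80, adjusted p = 0.00651). It was higher in flower than in leaf (log2 6.74 ± 1.57, adjusted p = 0.00858; 0.0155 without leaf41) and than in root (log2 6.32 ± 1.54, adjusted p = 0.00903; log2 10.6 without root33). Flower was the organ in which miR535a_5p was lowest, and a link between these sequences was not tested. MIR172l_3p was also higher in flower than in leaf (log2 4.51 ± 0.83, adjusted p = 0.0035) under every alternative run. Its differences between flower and root (log2 2.03 ± 0.73, adjusted p = 0.0479) and between root and leaf (log2 2.49 ± 0.77, adjusted p = 0.0352) passed narrowly. DESeq2 itself called both (adjusted p = 0.013 and 0.0307), but edgeR with its size factors did not (0.0521 and 0.074). Both were also lost without a filter (0.0843 and 0.298), on unjoined rows (0.115 and 0.145) and with a fold of at least 2 (0.111 and 0.0768). The first was lost with library totals (0.122) and the second on the 6 libraries compared (0.173). The second was also lost without leaf41 (0.0551), and both were lost when any of several other libraries was left out (adjusted p up to 0.144 and 0.175). In contrast to these, miR172a_3p was highest in leaf, at 219.7 ± 151.6 CPM against 36.22 ± 2.593 in root (log2 -2.59 ± 0.77 for root against leaf, adjusted p = 0.0304) and 14.81 ± 5.007 in flower (log2 -3.88 ± 0.82, adjusted p = 0.00625), and here leaf41, with 35 counts, lay below leaf1 (179) and leaf23 (128). Without leaf41 both calls were made (adjusted p = 0.00395 and 0.00161), while that against root was lost when any 1 root library, leaf1 or leaf23 was left out (adjusted p = 0.0566 to 0.114).

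Outside the family, the profile most like that of miR535a_5p over the 9 libraries was that of miR167b_5p, of a family that acts on auxin response factor genes. The measure was the root-mean-square difference of log2 CPM, each sequence centred on its own mean, over 123 sequences with a mean of at least 10 CPM, and it was 0.43 for miR167b_5p. That sequence stood at 70120 ± 9176 CPM in leaf, 15810 ± 636 in root and 7034 ± 1166 in flower (SD, n = 3 each). The next were miR828a_5p (0.74), of a family that acts on MYB genes, miR172g_5p (0.80), miR172a_3p (0.83) and MIR169k_5p (0.96), of a family that acts on NF-YA genes. These next 4 were rare, with organ means of at most 219.7 CPM. Over the 8 libraries without leaf41, miR172a_3p was closest (0.38), then miR167b_5p (0.42) and miR172g_5p (0.62), while MIR391a_5p (0.68) and MIR1446a_3p (0.71) took the places of miR828a_5p (0.79) and MIR169k_5p (1.003). Within the family, the difference from miR535a_5p was 0.52 for miR535c1_5p, 1.27 for miR535a_3p, 2.03 for miR535b_5p, 2.05 for miR535b_3p and 3.85 for miR535d_5p. A total of 113 of the 123 outside sequences were closer to miR535a_5p than miR535d_5p was, and 114 were without leaf41.

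**Figure D5:**
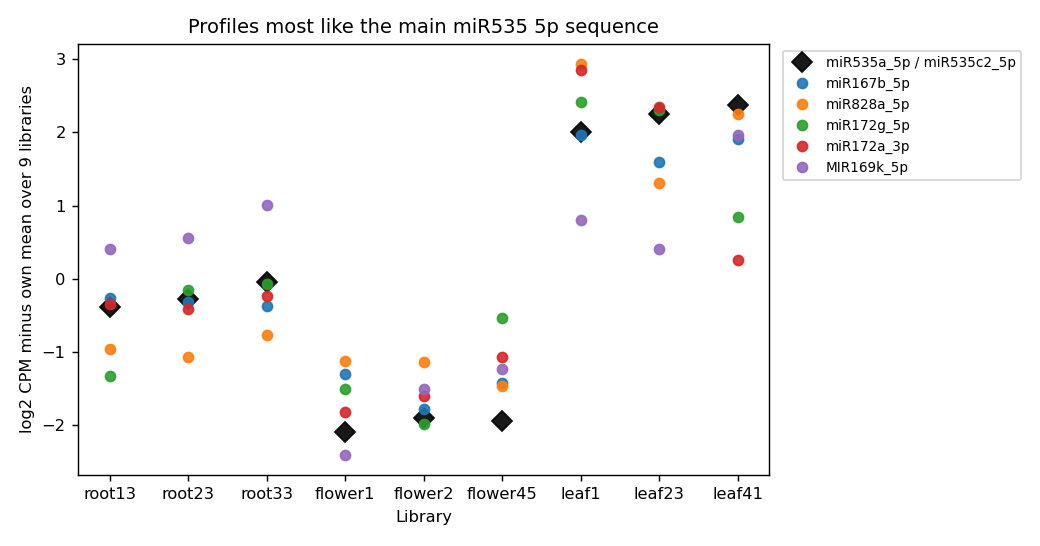
log2 CPM minus each sequence's own mean over the 9 libraries (vertical axis), by library, for miR535a_5p with miR535c2_5p (diamonds) and the 5 sequences outside the family with the smallest root-mean-square difference from it (circles). All 6 have their lowest organ mean in flower and their highest in leaf, for MIR169k_5p only through leaf41 (leaf1 and leaf23 average 52.05 CPM, root 54.68); in leaf41 all 5 circles lie below the diamond, those of miR172a_3p and miR172g_5p farthest.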

How the data were processed

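Small RNA was sequenced from 9 libraries, 3 per organ. Per the labels' protocols, TRIzol total RNA went into standard Illumina libraries after removal of ribosomal RNA. For the genome build and the software that trimmed, mapped and counted the reads, no entry is given in the sources used here. The authors deposited whole-number counts per named miRNA and, per the file headers, a rounded normalised score (RPTM, not defined there). The authors' constant of a library was taken as its summed counts over its summed scores among rows with high scores, 2.11 to 2.25. Whether the score of every row equals its count over this constant was not tested. The score gave only these constants. The leaf columns are headed "leave" and were matched by number. A blank row (1) was left out.

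Rows of the same sequence (U read as T) were joined. Counts were tested with edgeR 4.0.16 (R 4.3.3; TMM, filterByExpr by organ, glmQLFit and glmQLFTest, all 9 libraries, organ as the only factor, Benjamini-Hochberg at 0.05). The filter left 129 sequences with 99.971% of the counts. SE was taken as the size of the log2 fold change over the root of F. Ratios of counts took 0.5 added to each and two-sided exact permutation tests. Likeness used log2 CPM with a prior count of 2. Arms were folded with RNAduplex 2.7.2. On simulated counts with known changes, this fit called most of the larger changes, few of the smaller ones and no unchanged sequence. The simulated counts took their spread from these data, and increases and decreases, all in root, were equally many. The outcome thus does not cover uneven changes, the choice of scaling or a wrong estimate of the spread. As most of the smaller changes were missed, a sequence that is not called may still differ. No library that departs from its organ was simulated, so this outcome does not cover a case like leaf41. Alternatives were DESeq2 1.42.0, other scalings, no filter, unjoined rows, 6 libraries, a fold of at least 2, and each library left out. The members, the lists and the rule for named sequences (all members, the 3 most abundant miR156 and miR172 sequences, the 5 most alike profiles, the closest miR156 5p arm) were chosen with earlier results of these data known. The ratios between 5p members and the alternatives for named miR156 and miR172 sequences and for likeness were added after the data were seen. Intervals and floors cover counting error only.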

Additional observations from a re-analysis of the deposited data

How the results depend on the processing

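No member changed its direction under any of the alternatives run (299 values of 6 sequences, 3 comparisons and up to 17 alternatives: 268 kept their side of the threshold, 17 lost it and 14 gained it). The calls of miR535a_5p in all 3 comparisons, and those of miR535a_3p and miR535c1_5p between flower and leaf and of miR535a_3p between root and leaf, were made under every alternative. Of the named miR156 and miR172 sequences, direction changed in only 2 differences, neither called with all 9 libraries. miR172f_3p between root and leaf (log2 0.42) was -0.32 with DESeq2, -0.31 with its size factors, -0.70 without a filter, -0.77 with unjoined rows, -0.81 on the 6 libraries compared, and -3.80 to 1.14 with a library left out. miR156g_5p between flower and leaf (log2 -0.43) was 0.09 with the authors' constants and -0.80 to 0.37 with a library left out. DESeq2 gave no adjusted p for miR535b_5p and miR535d_5p in any comparison, so its counts leave them out. miR535d_5p could not be fitted between flower and leaf on 6 libraries. Without a filter, miR535c1_3p (6 reads) was also called lower in root and in flower than in leaf.

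Of 129 sequences, 45 were called between root and leaf, 47 between flower and leaf and 55 between flower and root. The first count was 68 with DESeq2 and 24 with a fold of at least 2, and it ran from 25 to 80 with a library left out, the latter without leaf41. Leaving out a library gave 31 to 61 between flower and leaf and 38 to 71 between flower and root. With a library left out, the count of miR535 members ran from 2 to 6, 3 to 6 and 1 to 4 in the 3 comparisons; over the other alternatives it reached 4 and 7 without a filter and 5 with other scalings. The median log2 difference over all sequences was 0.56 between root and leaf and 0.09 with the size factors of DESeq2, and the share of calls that were higher in root moved from 62.2% to 48.1%; with unjoined rows it was 28.0%. The share of calls that were higher in flower moved from 46.8% to 58.8% (authors' constants) and 29.4% (unjoined rows) against leaf, and from 43.6% to 56.1% (authors' constants) and 54.0% (DESeq2) against root. Between flower and leaf the median ran from -0.52 (library totals) to 0.46 (authors' constants), and with unjoined rows it was -1.16; between flower and root it ran from -0.34 (library totals) to 0.64 (authors' constants). The family share in flower was 0.493% with every row counted, beside 0.426%. All pairs of arms are listed under the same letter, so that alternative changed nothing. No paired analysis was possible because the labels pair no libraries: no 2 organs share more than 1 library number. With 3 libraries per organ the exact tests cannot pass 0.05. Calls on miR535c1_3p, and on miR535d_5p in flower, rest on 0 to 5 reads per library.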
